A study of Mus musculus with 2 samples.

Results

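Cardiac transcription factors are the DNA-binding proteins, with the coactivators that work on them, that switch on heart muscle genes and keep them on. The 10 genes described here are *Gata4*, *Gata6*, *Nkx2-5*, *Tbx5*, *Tbx20*, *Mef2a*, *Mef2c*, *Hand2*, *Myocd* and *Isl1*, out of 37074 gene names on the array. They were chosen by name, and each was measured by every non-control probe that the scanner output assigns to that name, 21 probes in all. Mouse cardiomyocytes (MCMs), bought as cultured cells and passaged before use, were transfected with the negative control siRNA-NC (siRNA-nc in the labels) or with siRNA-*Ppp2r5d* (siRNA-ppp2r5d), which is directed against a regulatory subunit of protein phosphatase 2A. Both groups received RNAiMAX transfection reagent, both were moved to glucose-free medium at 48 h, and total RNA was taken at 64 h. No isoproterenol (ISO) is named in the labels for these samples, and the strain and age of the source animals are not given in the sources used here. Each group was 1 sample on 1 one-colour array, so no difference below has a replicate check, and an effect of the siRNA and any other difference between these samples cannot be told apart.

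These factors act as a network. GATA4, NKX2-5 and TBX5 bind close to each other at cardiac enhancers and bind each other, MEF2 proteins join them at muscle genes, and myocardin switches on muscle promoters through serum response factor (SRF) without binding DNA itself. ISL1 marks progenitor cells of the second heart field and is mostly switched off in working ventricular muscle, whereas GATA4, NKX2-5, TBX5, TBX20 and MEF2 proteins stay on in the adult cardiomyocyte. Because the network is shared between developing and mature heart muscle, the level of its members is commonly read as a sign of cardiomyocyte identity.

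Of the 10 factors, 6 were well above background on both arrays, namely *Gata4*, *Gata6*, *Nkx2-5*, *Tbx20*, *Mef2a* and *Isl1*. *Mef2c* passed this mark only under siRNA-NC, through 1 of its 4 probes, and *Tbx5*, *Hand2* and *Myocd* were not well above background on either array. Over all gene names left after outlier spots were dropped, 54.9% were well above background on both arrays, so 6 of 10 was close to the share for the array as a whole. With siRNA-*Ppp2r5d*, 4 of the 6 factors had lower values and 2 had higher values, from a log2 fold change of -0.57 for *Gata6* to 0.32 for *Isl1*. None of the 7 factors detected on 1 array or both passed 2-fold, a size that 2.44% of the 21638 genes measured in this way reached.

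For most of the factors the call of detection rested on a single stretch of sequence. Each probe has 60 bases, and the first 30 bases are given here, 5′ to 3′ and in lower case, for the factors whose call rested on 1 probe, with an undetected probe of the same gene beside the detected one in the 3 factors whose probes gave opposite calls on both arrays. No letters are in capitals, since no motif was searched for. *Gata4* and *Isl1* each had a probe well above background and a probe that was not, and in both genes the detected probe lay nearer to the 3′ end of the transcript. *Nkx2-5*, *Tbx5*, *Hand2* and *Myocd* had 1 probe each, *Tbx20* was detected by 1 of 5 probes and *Mef2c* by 1 of 4, the latter under siRNA-NC alone. The number after a name is the position in the target transcript at which the scanner output places the probe. None of the full sequences of 60 bases occurred more than once among the probe sequences of the array. The printed 30 bases were not searched for in other probes.
Gata4 base 3227: tagcttcgaaccaagattctgttgtaatca
Gata4 base 530: tttgttttgatttttggtgacagttccgca
Isl1 base 2170: cccccaaagatgtgtatagttattggttaa
Isl1 base 233: atttcactgtggacattactccctcttaca
Nkx2-5 base 1453: acccgtatttatgtttttacctgttgtaag
Tbx20 base 3882: gtagttggtttccagacaaaatacagatgt
Tbx20 base 5422: actaaggagcatgtaagacactgcatttaa
Mef2c base 3630: ttggtatccaccttcatgattttaactgac
Tbx5 base 2800: aaatacctacctccgtcatgtgagatgtct
Hand2 base 1471: aagagctgaatgagatcttgaaaagcacag
Myocd base 3200: taatctgaattcccctatggatctccactt

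In build mm9, the detected *Gata4* probe is at chr14:63817858-63817917 and the undetected one at chr14:63860003-63860062, both on the minus strand. The detected *Isl1* probe is at chr13:117088774-117088833 and the undetected one at chr13:117099604-117099663, again on the minus strand. The *Nkx2-5* probe is at chr17:26975621-26975680 on the minus strand, the *Tbx5* probe at chr5:120334087-120334146 on the plus strand and the *Myocd* probe at chr11:64991930-64991989 on the minus strand. The *Hand2* probe is given as chr8:59801251-59802610 on the plus strand, an interval of 1360 bases that is longer than the probe. The exon or untranslated region to which each probe belongs was not analysed here. The GC content of the 60 bases was 45.0% for both *Gata4* probes, and it was 35.0% for the detected and 45.0% for the undetected *Isl1* probe.

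The signal of a spot is its background-corrected intensity, and the software marks a spot as well above background from its own error model. Of 59305 non-control spots, 35544 passed under siRNA-NC and 35174 under siRNA-*Ppp2r5d*, with 0 saturated spots. The lowest signal that passed was 14.9 and 13.5, respectively. Log2 signals were set relative to the 75th percentile of each array, which was a signal of 592 under siRNA-NC against 518 under siRNA-*Ppp2r5d*, so a signal that was equal on both arrays becomes a log2 fold change of 0.19. The error given with a signal or a fold change is that of the software for the spots, and it covers neither the spread between cultures nor that between hybridizations. For bright spots this error was nearly proportional to the signal, so the fold change of a bright probe had an error close to 0.20 in each case. Repeated spots of the same probe had a lower median SD of 0.036 in their log2 fold change. *Ppp2r5d* itself had a signal of 4701 ± 470.1 with siRNA-NC and 676 ± 67.7 with siRNA-*Ppp2r5d*, a log2 fold change of -2.61 ± 0.20 or 6.09-fold lower. In RNA from whole cultures, fewer cells of a type and less RNA per cell cannot be told apart.

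**Figure D1:**
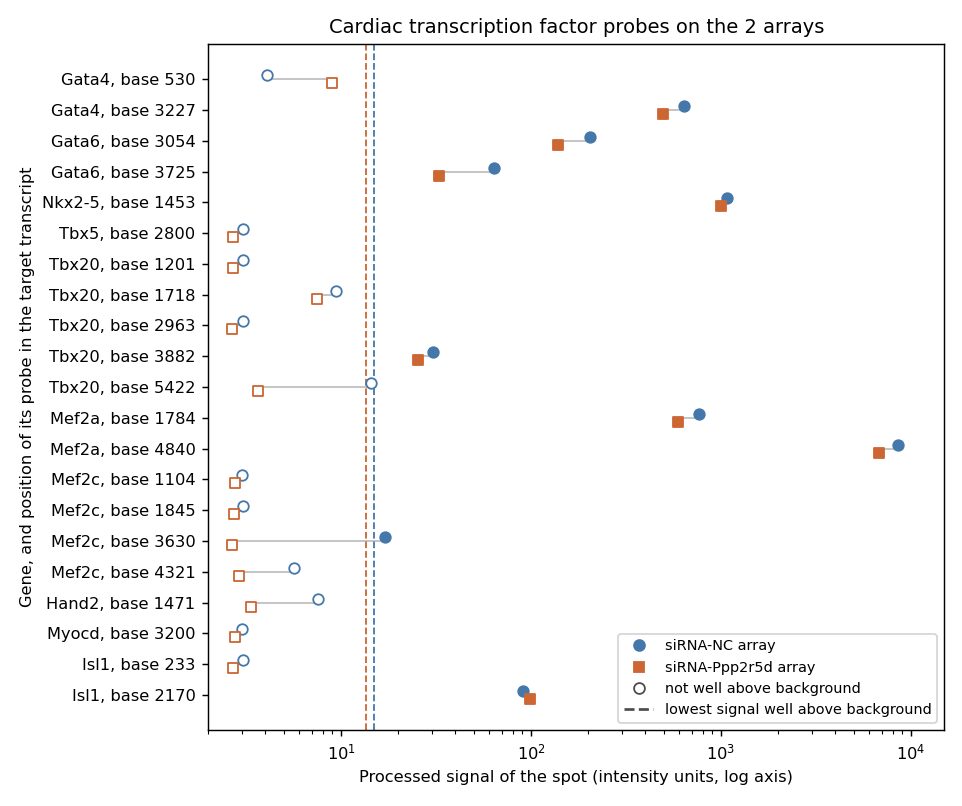
Processed signal (intensity, log axis) of each of the 21 probes of the 10 factors on the siRNA-NC array (circles) and the siRNA-Ppp2r5d array (squares), by gene and by position of the probe in its target transcript. Filled symbols are well above background, dashed lines mark the lowest signal that was (14.9 and 13.5), and 12 probes are open on both arrays.

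*Gata4* and *Gata6* encode zinc-finger proteins that bind GATA motifs, act early in heart formation and in part replace each other. The *Gata4* probe at base 3227 had a signal of 640 ± 64.0 with siRNA-NC and 495 ± 49.5 with siRNA-*Ppp2r5d*, a log2 fold change of -0.18 ± 0.20. This difference was smaller than its error. The *Gata4* probe at base 530 gave 4.07 and 8.96 and was well above background on neither array. With that dim probe averaged in, the value of *Gata4* was 0.58.

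*Gata6* was the factor with the largest difference in size among the 6, and both of its probes had lower values with siRNA-*Ppp2r5d*. At base 3054 *Gata6* had a signal of 205 ± 20.7 with siRNA-NC and 138 ± 14.1 with siRNA-*Ppp2r5d*, a log2 fold change of -0.38 ± 0.21. A further probe, at base 3725 of a cDNA clone, had a signal of 63.8 ± 7.09 and 32.7 ± 4.28, a log2 fold change of -0.77 ± 0.25. The mean over both was -0.57 ± 0.16, or 1.49-fold lower, and the probes differed by 0.40. In build mm9 they are at chr18:11085494-11085553 and, for the clone, upstream of it at chr18:11057522-11057581, both on the plus strand. *Gata6* was the 1 factor whose difference exceeded 2 errors, with the errors of its probes taken as independent. Of the 20311 genes measured on both arrays, 8.27% had a difference of at least this size and 4.81% had a value at or below it. It lay just under 1.5-fold, which is 0.58 on the log2 scale and which 9.17% of all genes measured on at least 1 array passed, against 0 of these 7 factors.

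*Nkx2-5* encodes the homeodomain protein that opens the cardiac programme in precursor cells and remains on in heart muscle. Its probe had a signal of 1078 ± 108 with siRNA-NC and 1001 ± 100.2 with siRNA-*Ppp2r5d*. The scaled log2 fold change was 0.085 ± 0.20, and it was -0.13 when the arrays were scaled to spike-in probes instead. The sign of this difference therefore turned with the scaling, and its size was within its error.

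The T-box factors differed in detection. *Tbx5*, which is needed for the atria, the left ventricle and the conduction system, had 1 probe, which gave 3.05 under siRNA-NC and 2.71 under siRNA-*Ppp2r5d*. Both are surrogate values that the software writes for a spot that is not significantly above its background, so they are not measured levels and have no order. *Tbx20*, which acts with GATA4 and NKX2-5 in chamber muscle, had 5 probes, of which 1 was detected. The probe at base 3882, at chr9:24527750-24527809 on the minus strand, had a signal of 30.3 ± 4.32 with siRNA-NC and 25.5 ± 3.76 with siRNA-*Ppp2r5d*. Its log2 fold change of -0.059 ± 0.30 was far within its error, and it was 0.0065 after quantile normalization. The other *Tbx20* probes lay below the lowest detected signal of each array. At base 5422 the signal was 14.4 under siRNA-NC, just below that limit of 14.9, and 3.66 under siRNA-*Ppp2r5d*. Base 1718 gave 9.38 and 7.47, and the probes at base 1201 and at base 2963 of a cDNA clone held surrogate values on both arrays.

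The MEF2 factors are MADS-box proteins that switch on contractile and metabolic genes and that respond to calcium signals and are held back by class II histone deacetylases. *Mef2a* was detected by both of its probes, at chr7:74379743-74379802 and chr7:74376810-74376869 on the minus strand. At base 1784 it had a signal of 764 ± 76.5 with siRNA-NC and 591 ± 59.2 with siRNA-*Ppp2r5d*, a log2 fold change of -0.18 ± 0.20. At base 4840 it had a signal of 8563 ± 856 and 6762 ± 676, a log2 fold change of -0.15 ± 0.20. These probes differed by 0.030 on the log2 scale, less than the 0.036 that was the median SD between repeated spots of the same probe, and their mean was -0.16 ± 0.14.

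*Mef2c*, which is needed for the right ventricle and the outflow tract, was well above background through 1 spot on 1 array. That probe, at base 3630 and chr13:83803888-83803947 on the plus strand, had a signal of 17.0 ± 3.51 with siRNA-NC and a surrogate value of 2.68 with siRNA-*Ppp2r5d*. Set against the lowest signal well above background, the values of *Mef2c* give a bound of at least 1.1-fold lower with siRNA-*Ppp2r5d*, or -0.14 on the log2 scale. This bound was smaller than the error of the siRNA-NC signal, 0.30 on the log2 scale, so no direction is read from it. The spot on the siRNA-NC array had a mean pixel value of 53.0 and a local background of 37, where the median over all non-control spots was 25, and 0.354% of these spots on that array had a local background of 37 or more. On the siRNA-*Ppp2r5d* array the same spot had a mean pixel value of 34.9 and a local background of 25. The background that the software subtracted there was 36.2 and 35.4, respectively. The part of this local background in the call was not tested. The probes at bases 1104, 1845 and 4321 were well above background on neither array, the last with 5.63 and 2.91 and the others with surrogate values. Those at bases 1845 and 4321 are at chr13:83665698-83665757 and chr13:83668174-83668233, upstream of base 1104 at chr13:83772788-83775025. Their positions are therefore counted along another target transcript than that of base 1104.

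*Hand2* encodes a basic helix-loop-helix protein of the right ventricle and of neural crest derivatives, and *Myocd* encodes myocardin, the coactivator of SRF in heart and smooth muscle. The *Hand2* probe gave 7.59 with siRNA-NC and 3.36 with siRNA-*Ppp2r5d*, under the lowest detected signal on each array. The *Myocd* probe held surrogate values of 3.01 and 2.76. Each call rests on 1 probe, and no level or fold change is given for *Tbx5*, *Hand2* or *Myocd*. *Gata4* and *Isl1* each had an undetected probe beside a detected one. The dim signals of *Tbx5*, *Hand2* and *Myocd* therefore neither bound the level of the gene nor show that the transcript was absent.

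*Isl1*, the LIM-homeodomain factor of second heart field progenitors, had the highest log2 fold change of the 6. At base 2170 it had a signal of 90.6 ± 9.57 with siRNA-NC and 99.2 ± 10.3 with siRNA-*Ppp2r5d*, and it was the only one of the 8 probes detected on both arrays whose signal was higher on the siRNA-*Ppp2r5d* array before scaling. After scaling, its log2 fold change was 0.32 ± 0.21, or 1.25-fold higher, and 11.0% of the genes measured on both arrays were at or above it. Its probe at base 233 held surrogate values on both arrays.

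**Figure D2:**
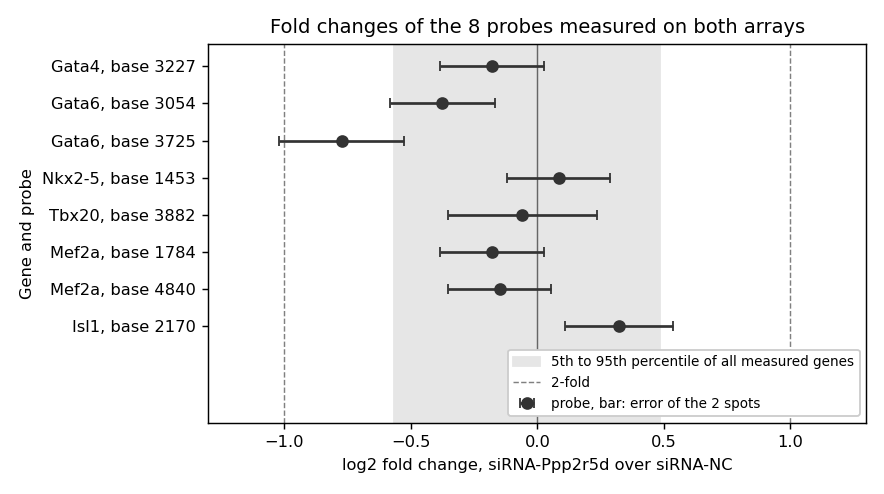
Log2 fold change (siRNA-Ppp2r5d over siRNA-NC) of the 8 probes detected on both arrays, with bars of 1 error of the 2 spots. All lie inside the dashed lines at 2-fold, 6 are below 0 and 2 above, and the grey band from -0.57 to 0.49 holds the 5th to 95th percentile of all genes measured on both arrays.

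The median log2 fold change over the 6 factors measured on both arrays was -0.11, beside 0.025 for all genes measured on both arrays. The 4 of 6 with lower values stand beside 46.0% of all such genes. For 3 factors the difference was larger than 1 error, *Gata6* and *Mef2a* with lower and *Isl1* with higher values. For *Gata6* and *Mef2a* this error is that of a mean over 2 probes, taken as independent. Neither *Mef2a* probe alone passed its error, with -0.18 ± 0.20 and -0.15 ± 0.20. Detection also varied between probes of the same gene. Of the 5 detected factors with several probes, 3 also had a probe that was not well above background (*Gata4*, *Tbx20* and *Isl1*), as did 37.2% of the 9202 genes on the array with several probes and at least 1 on both arrays. Of the 12 probes of the factors that passed on neither array, 7 held surrogate values on both arrays, and the other 5 were positive and significant by a weaker mark of the software. With that weaker mark, 8 of the 10 factors counted as present on both arrays, *Hand2* and *Mef2c* being added. Of all 37000 gene names, 24989 then counted as present on both arrays, beside 20311 with the main mark, so the count rose over the whole array.

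Relatives of these factors from the same families were mostly detected. Of 21 relatives, 16 were well above background on both arrays, 0 on 1 array, and 5 on neither (*Gata1*, *Hand1*, *Nkx2-1*, *Nkx2-3* and *Nkx2-9*). None reached 2-fold, 9 had lower and 7 higher values, and the median log2 fold change was -0.064. Among GATA genes, *Gata3*, a factor of lymphoid and epithelial cells, had a signal of 2764 with siRNA-NC and 1772 with siRNA-*Ppp2r5d*, a log2 fold change of -0.45. The other detected GATA genes had positive values, 0.07 for *Gata2*, a factor of blood and endothelial cells, and 0.24 for *Gata5*, which acts in heart and gut. The lowest value of the list was that of *Nkx2-6*, a homeobox gene of the pharyngeal region and early heart, with a signal of 93.2 and 51.2 and a log2 fold change of -0.67. *Nkx2-2*, a neural and pancreatic relative, had -0.33.

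T-box relatives were spread around 0. *Tbx1*, a factor of the pharyngeal arches and second heart field, had a signal of 5724 and 3940, a log2 fold change of -0.35. *Tbx3*, which holds back chamber genes in the conduction system, had -0.19 and *Tbx4* -0.094. *Tbx2*, the related repressor of the atrioventricular canal, had 0.24 and the epicardial factor *Tbx18* 0.18, while *Tbx15* had 0.097. The remaining MEF2 genes had small positive values, 0.15 for *Mef2b* and 0.13 for *Mef2d*. *Isl2* had -0.13, and the myocardin-related coactivators *Mkl1* and *Mkl2*, which unlike *Myocd* are made in most cell types, had -0.035 and -0.17. Under scaling to spike-in probes every value of a gene measured on both arrays was 0.21 lower, so that *Gata5* and *Tbx2* were the relatives left above 0.

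Partners and cofactors of the network were detected in 25 of 30 cases on both arrays. *Hey2* and *Irx4*, both of ventricular muscle, passed only under siRNA-NC, with bounds of -0.43 and -0.090 on the log2 scale. *Mesp1*, *Prdm16* and *Tcf21* passed on neither array. The median log2 fold change was -0.0046, with 14 lower and 11 higher values. *Heyl*, a basic helix-loop-helix repressor downstream of Notch, was the 1 partner past 2-fold, with a signal of 49.7 with siRNA-NC and 177 with siRNA-*Ppp2r5d* and a log2 fold change of 2.02, for which 1 of its 2 probes could be used. The next highest values were 0.53 for *Hopx*, a cofactor that lacks DNA binding and restrains SRF, 0.34 for the LIM-domain partner *Ldb1*, 0.34 for *Irx3* and 0.21 for *Wt1*. Among the lowest were -0.55 for the calcineurin-responsive factor *Nfatc4*, -0.39 for the MEF2 repressor *Hdac9*, -0.38 for the chromatin subunit *Smarcd3* and -0.23 for *Srf*. *Wt1* and *Hdac9* were near the lowest signals that passed, with 18.4 and 24.4 with siRNA-NC and 18.6 and 16.4 with siRNA-*Ppp2r5d*.

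Genes known to be driven by these factors were well above background on both arrays in 21 of 30 cases. *Myh6*, *Mybpc3* and *Ryr2* passed on the siRNA-*Ppp2r5d* array alone and *Xirp1* on the siRNA-NC array alone, while *Ckm*, *Corin*, *Myl2*, *Myl7* and *Pln* passed on neither. The bounds on the log2 scale were 0.13 for *Myh6*, 0.12 for *Mybpc3*, 0.56 for *Ryr2* and -0.0064 for *Xirp1*. *Mybpc3* passed with a signal of 14.2, where the lowest passing signal of that array was 13.5. No gene is read as switched on or off from these calls. The median log2 fold change was 0.055, with 13 higher and 8 lower values. *Csrp3*, which encodes a LIM protein of the Z-disc, was the 1 target past 2-fold, with a signal of 37.7 with siRNA-NC and 126 with siRNA-*Ppp2r5d*, a log2 fold change of 1.93. The next highest values were 0.94 for *Popdc2*, 0.90 for the myosin light chain gene *Myl3*, 0.68 for *Nppb*, which encodes B-type natriuretic peptide, and 0.64 for the atrial light chain gene *Myl4*. The *Nppb* signal was near the lowest that passed, 17.1 with siRNA-NC and 23.9 with siRNA-*Ppp2r5d*, from 1 of its 2 probes. The lowest values were -0.71 for *Cox6a2*, a muscle subunit of cytochrome c oxidase, -0.70 for the potassium channel gene *Kcnh2*, -0.63 for the sodium-calcium exchanger gene *Slc8a1*, -0.42 for *Des* and -0.22 for *Ankrd1*. *Slc8a1* was also dim, with 26.6 with siRNA-NC and 15.1 with siRNA-*Ppp2r5d* from 1 of its 4 probes.

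The label of the cells as cardiomyocytes was set against marker genes. Of 18 cardiomyocyte markers, 10 were well above background on both arrays, among them *Actc1*, *Tnnt2*, *Tnnc1* and *Ttn*, which is 55.6% beside the 54.9% of all gene names. *Myl2*, *Myl7*, *Actn2*, *Pln* and *Ckm*, which encode ventricular and atrial light chains, alpha-actinin, phospholamban and muscle creatine kinase, were on neither array, and *Myh6*, *Mybpc3* and *Ryr2* were not on the siRNA-NC array. The median of the measured cardiomyocyte markers was 0.32 on the log2 scale, and the signal summed over the probes of the list detected on at least 1 array was 11272.5 with siRNA-NC and 10199.7 with siRNA-*Ppp2r5d* before scaling. After scaling, the log2 difference of these sums was 0.047, so its sign turned with the scaling, as it did for the fibroblast, smooth muscle and endothelial lists. *Actc1* alone made up most of the cardiomyocyte sum, with 6443 with siRNA-NC and 5268 with siRNA-*Ppp2r5d*. Of 10 cardiac fibroblast markers 8 were on both arrays, *Tcf21* and *Thy1* being on neither, with a median of -0.071 and with *Lum* past 2-fold at 1.08. Of 7 smooth muscle markers 6 were on both arrays, *Lmod1* being on neither, with a median of 0.14 and with *Cnn1* past 2-fold at 2.41. The unscaled summed signal was 411243 and 369946 for the fibroblast list, 0.039 on the log2 scale after scaling, and 182435 and 162936 for the smooth muscle list, 0.029 after scaling.

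Other lists held markers of other cell types. The myogenic factors *Myod1* and *Myog* of skeletal muscle were well above background on both arrays, with signals of 451 and 254 with siRNA-NC and of 348 and 241 with siRNA-*Ppp2r5d*. Of 7 skeletal muscle markers 5 were on both arrays, *Myf5* and *Ckm* being on neither, with a median of 0.11, an unscaled summed signal of 4221 and 4603 (0.32 after scaling) and *Tnnt3* past 2-fold at 1.22. *Acta1* made up most of this sum, with 2636 with siRNA-NC and 2980 with siRNA-*Ppp2r5d*. Of 7 endothelial markers only *Pecam1* was on both arrays, with -0.23, and *Cdh5*, *Kdr*, *Tie1*, *Vwf* and *Emcn* were on neither. *Tek* passed only under siRNA-*Ppp2r5d*, with 8.39 and 18.7 and a bound of 0.52 on the log2 scale, and the unscaled summed signal of the list was 64.0 and 60.1, 0.10 after scaling. Of 6 epicardial and mesothelial markers 3 were on both arrays, *Upk3b*, *Krt19* and *Aldh1a2* being on neither, with a median of 0.18 and an unscaled summed signal of 29897.5 and 19608 (-0.42 after scaling). *Msln* alone made up most of this sum, with 26016.8 with siRNA-NC and 15755 with siRNA-*Ppp2r5d*, a log2 fold change of -0.53. *Tbx18* and *Wt1* had higher values, 0.18 and 0.21. Of 5 immune markers 4 were on both arrays, *Adgre1* being on neither, with a median of -0.32 and an unscaled summed signal of 9569 and 7592 (-0.14 after scaling). The cardiomyocyte markers other than *Actn2* and *Ttn*, 16 of 18, are also among the target genes above, so these lists are not separate. *Ckm* is in both muscle lists, *Tcf21*, *Wt1* and *Tbx18* are also among the relatives or partners above, and the part of any of these cells in the values of the 10 factors was not tested.

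**Figure D3:**
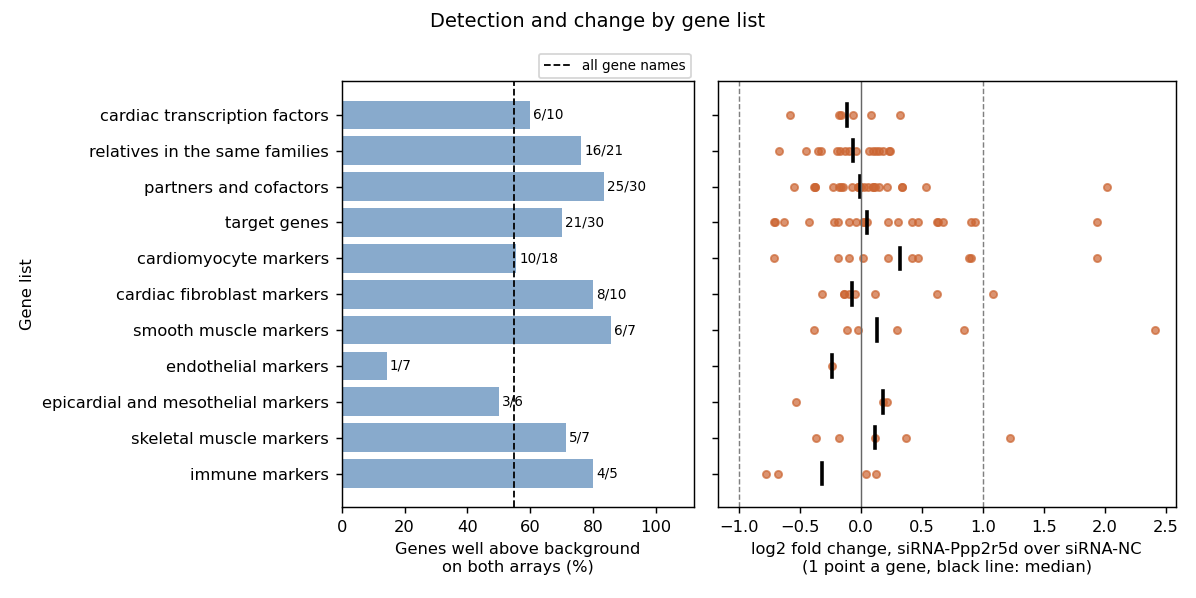
Left, percent of the genes of each list detected well above background on both arrays, with the counts beside the bars and a dashed line at the 54.9% of all gene names. Right, log2 fold change of each gene measured on both arrays (1 point a gene), with a black line at the median and dashed lines at 2-fold: the factors lie between -0.57 and 0.32 around a median of -0.11, and the cardiomyocyte markers have a median of 0.32.

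The 6 measured factors did not all keep their sign when the arrays were processed in other ways. *Gata6* stayed lower with siRNA-*Ppp2r5d* in all 10 alternatives that gave it a value, from -0.79 to -0.24, *Mef2a* stayed lower, from -0.38 to -0.14, and *Isl1* stayed higher, from 0.11 to 0.37. *Gata4* ranged from -0.39 to 0.58, *Nkx2-5* from -0.13 to 0.11 and *Tbx20* from -0.66 to 0.061, so the sign of these 3 depended on the processing. No factor passed 2-fold in any of them.

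**Figure D4:**
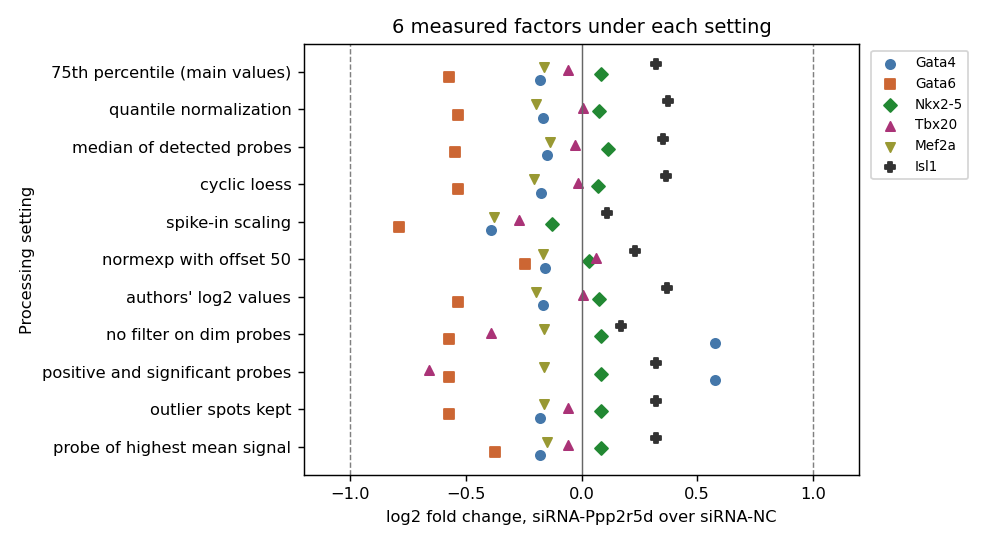
Log2 fold change (siRNA-Ppp2r5d over siRNA-NC) of the 6 measured factors, 1 symbol a gene, under the 75th percentile scaling and 10 other processing settings, with dashed lines at 2-fold. Gata6 is below 0 in every row (-0.79 to -0.24) and Isl1 above 0 in every row (0.11 to 0.37), while Gata4, Nkx2-5 and Tbx20 lie on both sides of 0.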

How the data were processed

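For each array the authors deposited the intensity of every spot from Agilent Feature Extraction 10.7.1.1 (version from the submitters' processing notes), from which the software had subtracted a background fitted over the array rather than that around each spot, with no scaling between arrays. A second deposited table holds log2 values, from which a quantile normalization of these intensities differed by a median of 1.23e-04 under siRNA-NC and 1.29e-04 under siRNA-*Ppp2r5d*. The methods give no normalization. The array coordinates are of build mm9.

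Control spots and the 375 spots marked as outliers on either array were left out. Spots of 1 probe were averaged on the log2 scale, each array's 75th percentile was subtracted, and a gene was the mean over its probes well above background on both arrays. Genes on 1 array received a bound. Errors propagate the software's error of each spot, and the error of a mean over probes takes the probes as independent. Both arrays lay on 1 slide with 1 scan time. In simulated data, 200 of 200 genes changed 3-fold were recovered with 0 false calls among 21091 genes at a noise SD of 0.1. That noise was below the errors of the factors' probes, 0.20 to 0.30, and detection was copied from the siRNA-NC array. Recovery and the lack of false calls were therefore near certain in advance, and the run checks the calculation only. The 6 factors measured on both arrays had log2 fold changes from -0.57 to 0.32, all smaller than 3-fold. The simulation therefore does not show whether differences of that size would be recovered.

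With 1 array per condition no spread between cultures can be had, so no test was made, and no likeness of pattern between genes was computed from 2 arrays. The factors, gene lists and 12 alternatives were chosen with earlier results of these data known. Named genes are the factors, *Ppp2r5d*, relatives, and partners and targets past 2-fold or among the 5 highest or lowest, and markers stand for the lists that hold them. Not every gene that meets this rule is reported here. The number of arrays limits the precision. The software was limma 3.58.1 under R 4.3.3, and pandas 2.3.3, NumPy 2.4.6 and matplotlib 3.10.9 under Python 3.11.15.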

Additional observations from a re-analysis of the deposited data

How the results depend on the processing

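The count of factors past 2-fold was 0 in all 10 alternatives that changed the processing. With the main processing it was also 0 at thresholds of 1.5-fold and 4-fold, which complete the 12 alternatives. The 1.5-fold threshold was not counted under other processing. There some factors passed it, among them *Gata6* with -0.79 under spike-in scaling and *Tbx20* with -0.66 with positive and significant probes. The median log2 fold change of -0.11 became -0.32 with scaling to spike-in probes, -0.063 with normexp correction and an offset of 50, -0.070 with no filter on dim probes (10 factors) and -0.37 with positive and significant probes (8 factors). The median of all genes was -0.19 with spike-in scaling, and 5 of 6 factors were then lower. This scaling lowers every gene measured on both arrays by 0.21, and their 75th percentile was 0.18 under the main scaling. At least 75% of these genes were therefore also lower with spike-in scaling. Of 70 values of single genes under the alternatives, *Ppp2r5d* included, 6 had the other sign: *Tbx20* with 0.0065 under quantile normalization, 0.0057 in the authors' log2 values and 0.061 under normexp, *Nkx2-5* with -0.13 under spike-in scaling, and *Gata4* with 0.58 under both other filters, in which its dim probe enters. Over all genes, 219 higher and 308 lower genes past 2-fold became 122 and 619 with spike-in scaling, 62 and 44 with normexp, 936 and 1106 with no filter, and 1077 and 1291 with positive and significant probes. No paired analysis was possible because each condition has 1 array, and for the same reason no replicate could be left out. Low signal limits *Tbx5*, *Hand2* and *Myocd*, which were not detected, and *Mef2c*, whose detected spot was just above the lowest signal well above background.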
